A study of Mus musculus with 6 samples.

Results

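First exons held 485 of the 8129 H3K4me3 regions listed for replicate 1 of sorted mouse fetal oocytes, or 5.97% (exact 95% interval 5.46 to 6.50). A region was taken as a first-exon region where the authors' annotation placed its centre in an exon and gave that exon as number 1 of its transcript. These regions made up 71.1% of the 682 regions annotated to any exon, and the other 197 lay in later exons. They covered 354.3 kb in all, had 482 different nearest transcripts, and all 485 lay on numbered chromosomes or chromosome X. The comparison class was the authors' promoter-TSS class (TSS, transcription start site), with 3559 regions, and the next most similar class was the first intron, with 1169.

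The cells were GFP-positive oocytes sorted from the gonads of female embryos at E16.5 that carried an Oct4-EGFP reporter, in which the germ cell gene Pou5f1 (Oct4) drives the fluorescent protein. The breeding line was B6;129S4-Pou5f1tm2Jae/J per the labels' protocol, the strain label was C57BL/6, and every sample was Taf4b-wildtype, so that no cells lacking TAF4b are compared here. CUT&RUN, in which a nuclease directed by an antibody releases the DNA under the target, was done with 2 libraries each for H3K4me3 and TAF4b, and the IgG libraries were not analysed here. The labels do not say whether the 2 libraries of a target came from separate embryos or how many embryos were pooled.

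H3K4me3, the trimethylation of lysine 4 of histone H3, is laid down around active and poised start sites by the COMPASS and MLL methyltransferases. It sits on the nucleosomes that flank a start site, and on the downstream side those nucleosomes lie over the first exon and the beginning of the first intron. TAF4b is a subunit of TFIID, the general factor that binds core promoters at the start site, it is enriched in germ cells, and TFIID can bind H3K4me3 through its TAF3 subunit.

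The 4 lists were of very different length. H3K4me3 replicate 1 had 8129 regions and replicate 2 had 320, of which 12 were in first exons (3.75%, 1.95 to 6.46), while the TAF4b lists had 983 and 1111 peaks. Read depth per library is unknown here, and a feature missing from a list is one that was not called there, which does not show that it was absent. The lists name Ensembl transcripts without gene symbols, and they hold no expression values, so the identity of the sorted cells was not checked against marker genes. Regions of 1 library are not replicates of a condition, so the intervals below cover counting error over regions only and no p-value is given. A difference between classes is called where the 95% interval of the difference of shares (Newcombe's method) excludes 0.

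First-exon regions sat just downstream of the start site. The distance in the lists runs from the TSS of the nearest transcript to the region's centre, and its median over the 485 regions was 219 bp downstream (95% interval of the median 204 to 239), with quartiles at 155 and 407 bp. None was centred in the first 100 bp of a transcript. For promoter-TSS regions the median was -10 bp, which is upstream. The gap at the near end belongs to the annotation: the 1354 promoter-TSS regions whose annotated transcript was also the nearest ran from -998 to 100 bp, so positions out to 100 bp were taken by that class before exons were considered. Of the 485 first-exon regions, 447 lay within 1000 bp of the TSS, 36 lay farther downstream, and 2 were centred upstream of the nearest TSS, at -1124 and -2850 bp. In 330 of the 485 the transcript whose first exon was named was also the nearest transcript, and in the rest the 2 columns of the list named different transcripts. Since position follows from how the classes were defined, these distances describe the regions and are not tested.

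Although their centres were downstream, most first-exon regions still lay across the start site. The upstream edge had a median of -91 bp (-115 to -67), against -366 bp for promoter-TSS regions, and the downstream edge had a median of 592.5 bp (561 to 626), against 308.5 bp. The TSS lay inside 327 of the 485 regions, 67.4% (63.1 to 71.6), compared with 87.3% of promoter-TSS regions, 21.3% of first-intron regions and 46.2 percent of all regions in the list. At 250 bp upstream of the TSS, 20.6% of first-exon regions still covered the position, compared with 72.4% of promoter-TSS regions. At 500 bp downstream the order was the other way round, with 57.9% and 18.5%. These shares too follow from where the class places the centre.

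**Figure D1:**
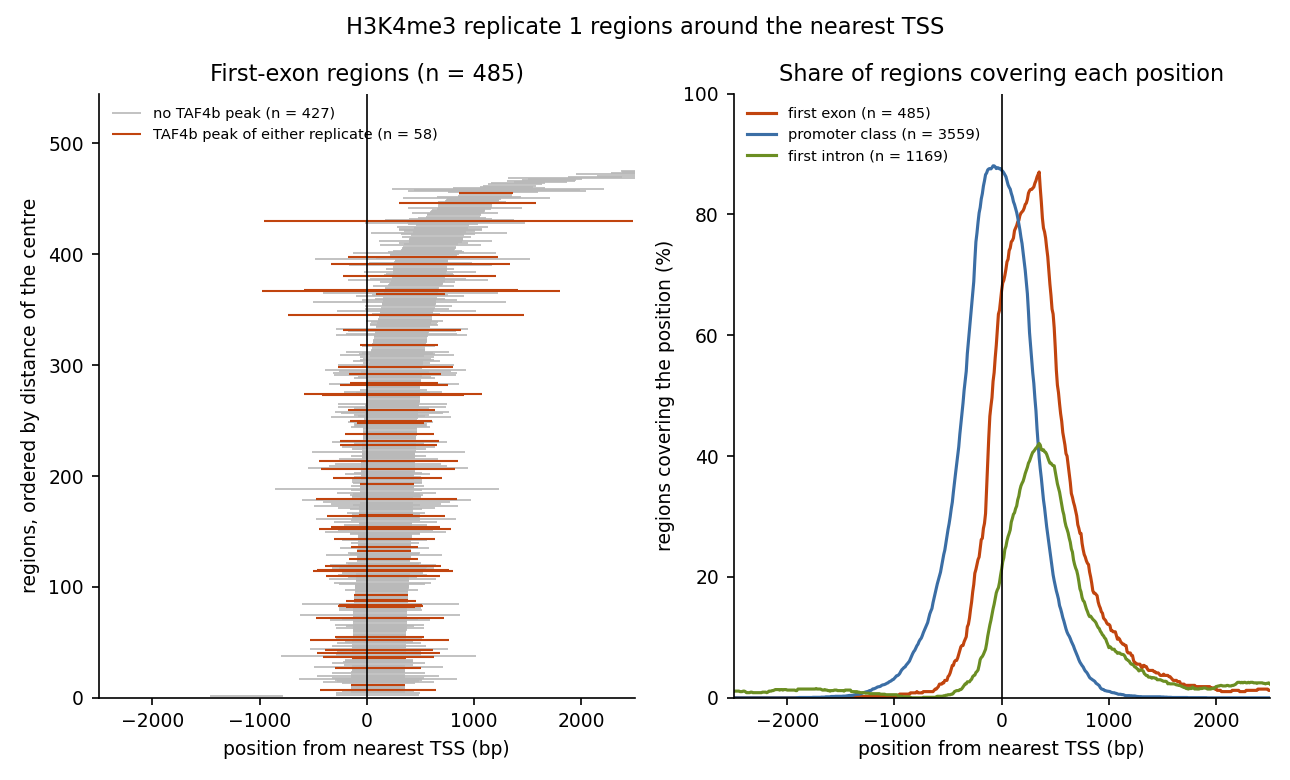
On the left each horizontal line is 1 of the 485 first-exon regions, placed by its distance in bp from the nearest TSS (vertical line at 0, downstream to the right) and ordered by the distance of its centre, with the 58 that hold a TAF4b peak in red and the 427 others in grey. On the right the share of regions (%) that cover each position is drawn for first-exon, promoter-TSS and first-intron regions, and at the TSS itself it is 67.4%, 87.3% and 21.3%.

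The 327 regions that spanned the TSS and the 158 that did not differed in more than position. Regions that spanned it had a median score of 48.7 and a median width of 653 bp, and the others 39.4 and 500 bp. The score is the authors' peak score, a number with no fixed range that is comparable only within 1 list. A wider region reaches the TSS from a greater distance, so width and spanning are not independent measures.

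Width was close to that of promoters. Of the 485 regions, 232 had exactly 500 bp, the narrowest width listed, and the other 253 had at least 625 bp, which is also the next width in the whole list. The median was 628 bp (500 to 639) against 631 bp for promoter-TSS regions, and the upper quartile was 828 bp. Regions wider than 500 bp made up 52.2% of the first-exon class, 55.9% of the promoter-TSS class and 47 percent of the list. The difference of -3.78 percentage points (-8.51 to 0.93) included 0. The widest first-exon region, chr8:11605154-11608595 (build GRCm39, as are all positions here), was 3441 bp, with a score of 215.8. It was annotated to exon 1 of 2 of ENSMUST00000054399 and ran from -957.5 to 2483.5 bp around the nearest start, that of ENSMUST00000209646.

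In replicate 1, scores were lower in first exons than in promoter-TSS regions by a small margin. The median was 44.1 (41.8 to 46.4), with quartiles at 34.8 and 67.3 and a range from 25.5 to 232, and in promoter-TSS regions it was 46.4 (46.4 to 48.7) with a highest score of 693.7. A score above the list's median of 41.8 was found in 51.3% of first-exon and 58.4% of promoter-TSS regions, against 49.1 percent of all regions. This difference was -7.10 points (-11.8 to -2.39). Among regions that spanned the TSS it was -3.19 points, and its interval included 0. In the list of H3K4me3 replicate 2, with 12 first-exon and 221 promoter-TSS regions, the same difference had the opposite sign, 29.3 points (0.31 to 46.6). First-exon regions, 5.97% of the list, took 9 of its 100 highest scores and 12 of its 100 greatest widths. The promoter-TSS class, 3559 of the 8129 regions, took 70 and 74. Neither class was therefore short of regions at the top of the list. Score followed width within the class: the 500 bp regions had a median of 34.8 and the wider ones 65.

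The first-exon region with the highest score, 232, was chr7:63586859-63589642. It lay over exon 1 of 2 of ENSMUST00000063694, was 2783 bp wide and was centred 413 bp downstream of that transcript's TSS, so that its edges were at -978.5 and 1804.5 bp. It held TAF4b peaks of both replicates, with TAF4b scores of 8.47 and 29.4. The third in score, chr8:11057230-11059315, had a score of 162.4 over exon 1 of 2 of ENSMUST00000040514 and was 2085 bp wide, yet no TAF4b peak of either replicate lay in it. The next 2 were both on single-exon transcripts. One of them, chr12:8549167-8550484 with a score of 155.4, spanned the TSS of ENSMUST00000067384 and held a TAF4b peak of replicate 1 with a score of 8.08. The other, chr7:83531297-83533281 with a score of 153.1, began 232 bp downstream of the TSS of ENSMUST00000094216 and held no TAF4b peak.

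First-exon regions were called again in the other H3K4me3 list less often than promoter-TSS regions. Of the 485, 9 overlapped a region of replicate 2 by at least 1 bp, 1.86% (0.85 to 3.49), against 5.00% of promoter-TSS regions and 2.84 percent of the list. The difference was -3.15 points (-4.31 to -1.38). These shares are bounded by the 320 regions of the shorter list. Of the 9, 8 spanned the TSS, as did 67.4% of the class, and all 9 lay on multi-exon transcripts, as did 351 of the 485. The share found was 2.45% (1.06 to 4.76) of spanning and 0.63% (0.02 to 3.48) of non-spanning regions. These intervals overlapped, and no difference is called from so few regions. The 320-region list assigned 5 of the regions that matched the 9 to first exons and 4 to the promoter-TSS class. The centre thus moved across the class boundary between libraries in some of the 9.

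The 9 regions ranged in replicate 1 score from 148.5 to 44.1. The strongest, chr16:5072498-5074299 over exon 1 of 2 of ENSMUST00000140000, had scores of 148.5 and 85.1 in the 2 H3K4me3 lists. The region chr11:70300068-70301190, over exon 1 of 4 of ENSMUST00000135148, had 88.2 and 120.5. The weakest in replicate 1, chr8:84854844-84855344, scored 44.1 and 99.3 and was the only one of the 9 that did not reach the TSS, starting 397 bp downstream of that of ENSMUST00000147175. Order in the first list was not order in the second. The region chr3:87792275-87793222, over exon 1 of 7 of ENSMUST00000005015 and centred 167 bp downstream, was the only first-exon region of replicate 1 that was called in all 4 lists, with H3K4me3 scores of 83.5 and 99.3 and TAF4b scores of 9.62 and 40.6.

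Seen from the other side, 8 of the 12 first-exon regions in the shorter list overlapped something in the longer one, and 5 of them a first-exon region. They were centred 103 to 804 bp downstream of the TSS, 8 of the 12 spanned it and 11 were 500 bp wide. Their scores ran from 85.1 to 120.5 with a median of 99.3, where the median of that list was 85.1. A TAF4b peak of either replicate lay in 2 of the 12, 16.7% (2.09 to 48.4). The difference from the 221 promoter-TSS regions of that list was -19.5 points (-33.2 to 9.25), so no difference is called. The share of all regions of the shorter list is not given here, for TAF4b overlap or for overlap with the longer list. Neither count is therefore set against that list as a whole.

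TAF4b was called in fewer first-exon regions than promoter-TSS regions. A TAF4b peak of either replicate overlapped 58 of the 485, 12.0% (9.21 to 15.2), compared with 766 of 3559, 21.5% (20.2 to 22.9), and with 10.7 percent of all regions, so that first exons were near the level of the list as a whole. The difference from promoter-TSS regions was -9.56 points (-12.5 to -6.11). Each TAF4b list gave the same direction. Peaks of replicate 1 lay in 35 first-exon regions (7.22%, against 12.9% of promoter-TSS regions and 6.43 percent of the list), and those of replicate 2 in 41 (8.45%, against 15.8% and 7.81 percent). Peaks of both replicates lay in 18 (3.71%, against 7.17% and 3.53 percent).

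First-exon regions with TAF4b were mainly those that reached the start site. Of the 327 that spanned the TSS, 54 held a peak, 16.51% (12.7 to 21.0), and of the 158 that did not, 4 did, 2.53% (0.69 to 6.35). In promoter-TSS regions the shares were 23.2% and 9.74%. The differences between the classes were -6.72 points (-10.7 to -2.08) among spanning regions and -7.20 points (-10.65 to -2.71) among the others. In 500 bp regions a peak was found in 3.45% of first-exon and 14.2% of promoter-TSS regions, and in wider regions in 19.8% and 27.3%. Over the 4 score bands cut at the quartiles of the list, from lowest to highest, first-exon regions held a peak in 3.43%, 4.44%, 9.90% and 26.4%, and promoter-TSS regions in 10.9%, 14.6%, 20.4% and 34.3%. In the highest band the difference of -7.94 points (-15.0 to 0.17) no longer excluded 0.

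**Figure D2:**
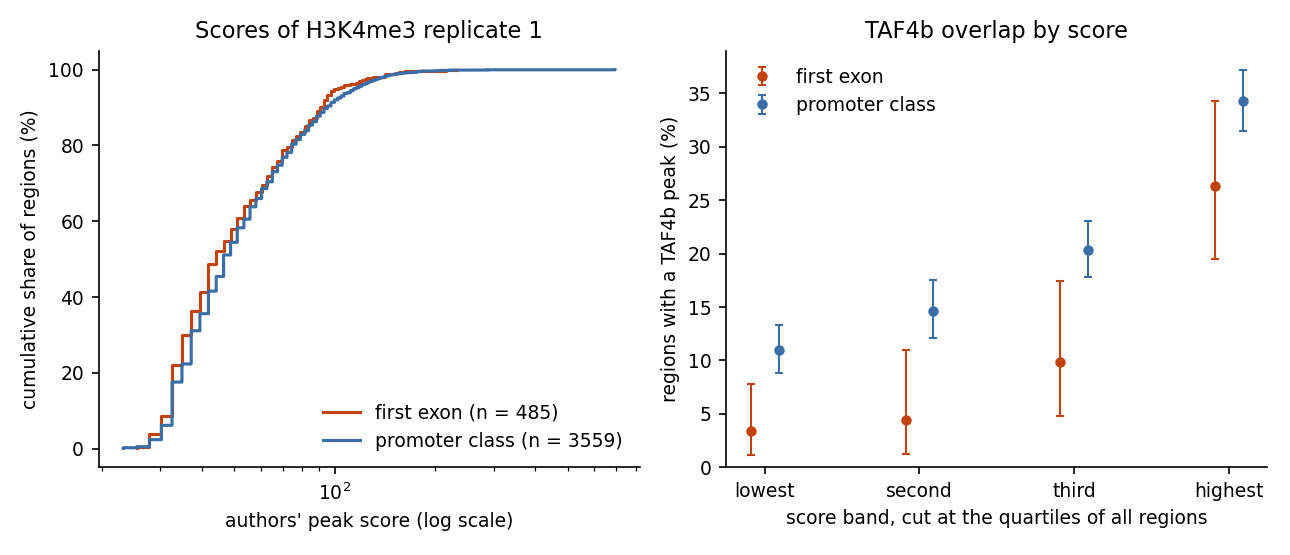
On the left the cumulative share of regions (%) is drawn against the authors' peak score in H3K4me3 replicate 1 on a log axis, for the 485 first-exon and 3559 promoter-TSS regions, whose medians are 44.1 and 46.4. On the right points give the share of regions (%) with a TAF4b peak of either replicate in each of 4 score bands cut at the quartiles of all regions, with exact 95% intervals as bars; it rises from 3.43% to 26.4% in first exons and from 10.9% to 34.3% in promoter-TSS regions.

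Most TAF4b peaks within first-exon regions were themselves annotated promoter-TSS and not first exon. Of the 35 peaks of replicate 1 that overlapped first-exon regions, 28 were annotated promoter-TSS and 6 first exon, and 26 were centred upstream of their own nearest TSS, with a median of -60 bp. In replicate 2, 39 of 41 were annotated promoter-TSS and 2 first exon, 36 were centred upstream, and the median was -70 bp. Over the whole TAF4b lists 1.63% and 0.72% of peaks were annotated first exon. The promoter-TSS share of those lists is not given here, so the counts do not set these peaks apart from TAF4b peaks in general. Where peak and region had the same nearest transcript, the peak was upstream of the region's centre along that transcript in 20 of 22 cases in replicate 1, by a median of 228.5 bp, and in 18 of 19 cases in replicate 2, by a median of 266 bp. In promoter-TSS regions 100 of 217 and 141 of 287 peaks lay upstream of the region's centre, with medians of -7 and -2 bp. The offset between the classes restates where the annotation places their centres and is given as a description. The 35 peaks had a median TAF4b score of 7.7, the same as their whole list, and the 41 had 19.3 against 18.3.

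TAF4b peaks annotated to a first exon were few, 16 of replicate 1 (1.63% of the list) and 8 of replicate 2 (0.72%). Of these, 6 and 2 lay in a first-exon H3K4me3 region, and 10 and 4 in any H3K4me3 region of replicate 1. The share of all TAF4b peaks in H3K4me3 regions is not given here. These counts are therefore not set against the TAF4b lists as a whole. The 4 non-spanning first-exon regions with TAF4b each held 1 of the peaks annotated to a first exon, and all 4 were on single-exon transcripts. One of the peaks, of replicate 1 with a score of 10.4, was at chr5:120764660-120764750, 981 bp downstream of the TSS of ENSMUST00000202387.

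Among regions centred within 1000 bp downstream of the start site, first-exon regions were not separated from promoter-TSS regions in TAF4b overlap, and they exceeded first-intron regions, which lay farther from it. Centres more than 100 and up to 1000 bp downstream were found for 447 first-exon, 469 promoter-TSS, 563 first-intron and 42 later-exon regions. None of the 469 promoter-TSS regions had its annotated transcript as the nearest one, so they are regions at the promoter of 1 transcript that lie downstream of the start of another. The window was chosen after the data were seen for this comparison. Within it TAF4b was found in 12.5% of first-exon and 14.5% of promoter-TSS regions, a difference of -1.97 points (-6.40 to 2.49) that included 0. First-intron regions held a peak in 4.97%, 7.56 points fewer than first exons (4.08 to 11.3). None of the 42 later-exon regions held one, a difference from first exons of 12.5 points (3.71 to 15.9).

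The classes in that window were not alike in other ways. Median distances were 205 bp in first exons, 196 bp in promoter-TSS and 336 bp in first-intron regions, and median scores were 44.1, 48.7 and 41.8. The TSS lay inside 73.2%, 78.5% and 43.7% of them. First-exon regions exceeded first-intron regions in the share wider than 500 bp (52.8% against 42.1%) and in the share above the median score (51.7% against 44.6%), with differences of 10.7 points (4.50 to 16.8) and 7.10 points (0.89 to 13.2). Against promoter-TSS regions of the window the share above the median score stayed lower in first exons, by -8.02 points (-14.4 to -1.59), and so did the share found in H3K4me3 replicate 2, 2.01% against 4.69% (-2.68 points, -5.18 to -0.31). The share found in replicate 2 did not separate first exons from first introns, at 2.01% and 2.49% (-0.47 points, -2.37 to 1.56).

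By distance, the share of first-exon regions with TAF4b went from 15.6% of those centred more than 100 and up to 200 bp downstream to 12.4% up to 300 bp, 8.45% up to 500 bp and 6.78% up to 1000 bp. First introns stood at 10.3%, 7.09%, 2.69% and 1.49% in the same bins, and promoter-TSS regions at 18.9%, 15.0%, 4.49% and 6.90%. The intervals of neighbouring bins overlapped in each class. Within the bins first exons differed from first introns by 5.22 points (-2.86 to 12.2), 5.29 points (-2.39 to 13.6), 5.76 points (0.077 to 14.7) and 5.29 points (-0.30 to 14.8), so that the excess was past counting error in 1 of the 4 bins. Among regions of the window that spanned the TSS, 16.51% of first-exon and 8.94% of first-intron regions held a peak, a difference of 7.57 points (2.00 to 12.9). With TAF4b replicate 1 alone that difference was 4.1 points and included 0 (-0.47 to 8.44), and with replicate 2 alone it was 5.73 points (0.81 to 10.4).

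First-exon regions of the window were also sorted by how far the upstream edge reached past the TSS, and TAF4b overlap was lower at shorter reach. Where the edge was more than 300 bp upstream, 39.1% of 64 first-exon regions held TAF4b, and where the region did not reach the TSS, 1.67% of 120 did. In between, the shares were 18.2% of 55 regions reaching more than 200 and up to 300 bp, 12.2% of 115 reaching more than 100 and up to 200 bp, and 5.38% of 93 reaching up to 100 bp. Promoter-TSS regions of the window, in the same order from the farthest reach, stood at 34.1%, 28.3%, 16.4%, 3.39% and 2.97%, and first introns at 26.7%, 14.6%, 4.05%, 4.95% and 1.89%. In every one of these 5 bins the interval of the difference included 0, both against promoter-TSS and against first-intron regions. The bins hold from 30 to 317 regions, which leaves wide intervals, so likeness between the classes is not shown by this. Reach was also not independent of width and score. At the farthest reach 100% of first-exon regions were wider than 500 bp and 100% scored above the list median. Among those reaching up to 100 bp the shares were 22.6% and 24.7%, and where the TSS was not reached 31.7% and 33.3%. Whether TAF4b overlap follows reach apart from width and score was not tested.

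**Figure D3:**
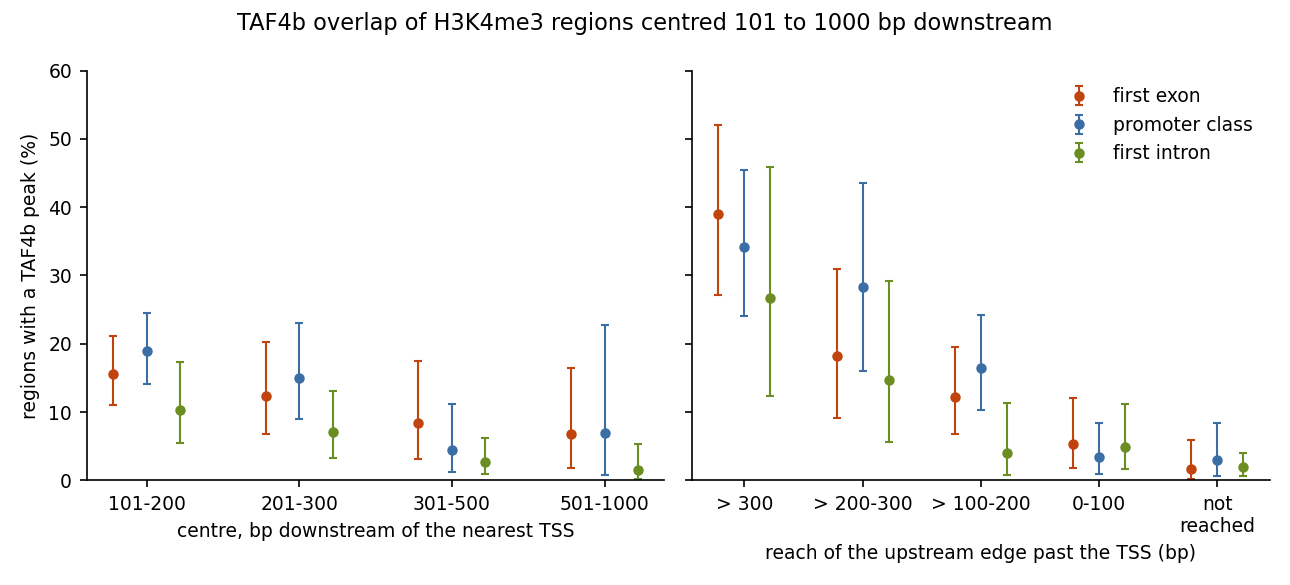
Points give the share of regions (%) with a TAF4b peak of either replicate among regions centred more than 100 and up to 1000 bp downstream of the nearest TSS, with exact 95% intervals as bars, for first-exon, promoter-TSS and first-intron regions. On the left they are binned by the distance of the centre in bp and on the right by how far in bp the upstream edge reaches past the TSS, where first-exon regions go from 39.1% at the farthest reach to 1.67% where the TSS is not reached.

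The strongest first-exon regions with both TAF4b replicates all spanned the start site. After the one on chromosome 7, the next by H3K4me3 score was chr14:62997095-62999299, with 141.5, over exon 1 of 5 of ENSMUST00000225406, and its TAF4b scores were 13.5 and 50.7. The region chr3:103821382-103822683, over exon 1 of 8 of ENSMUST00000051139, had an H3K4me3 score of 125.3 and TAF4b scores of 6.16 and 19.3. Another 2 were on single-exon transcripts. These were chr1:59520998-59522997 on ENSMUST00000114246, with 125.3 for H3K4me3 and 6.16 and 17.2 for TAF4b, and chr1:9615409-9616836 on ENSMUST00000072079, with 92.8 for H3K4me3 and 7.7 and 21.3 for TAF4b.

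Single-exon transcripts, those annotated as exon 1 of 1, accounted for 134 of the 485 regions and multi-exon transcripts for 351. Of the latter, 55 were on transcripts of 2 exons and 195 on transcripts of 6 or more, up to 77. In a single-exon transcript the whole transcript is the first exon, so that a region far along it can still belong to the class. Single-exon regions were centred at a median of 490.5 bp (312 to 641) and multi-exon regions at 198 bp (186 to 205). Of the 36 regions more than 1000 bp downstream, 35 were on single-exon transcripts.

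Correspondingly fewer single-exon regions contained the start site, 38.8% (30.5 to 47.6) against 78.3% (73.7 to 82.5), a difference of -39.5 points (-48.3 to -29.9). Within multi-exon transcripts the share was 80.0% for 2 exons, 78.2% for 3 to 5 and 77.9% for 6 or more, with intervals that overlapped. The 2 groups did not differ past counting error in score or width over all their regions. A score above the list median was found in 52.2% of single-exon and 51.0% of multi-exon regions, both groups had a median score of 44.1, and 53.7% and 51.6% were wider than 500 bp.

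Regions away from the start site did differ in width and score between the 2 kinds of transcript. Among the 82 single-exon and 76 multi-exon regions that did not span the TSS, 45.1% and 23.7% were wider than 500 bp, a difference of 21.4 points (6.60 to 34.9). A score above the list median was found in 48.8% and 23.7%, a difference of 25.1 points (10.1 to 38.5). Median scores were 41.8 and 37.1, and median distances 912.5 and 420 bp. TAF4b was in 4 of the 82 and in none of the 76, and no difference in TAF4b overlap is called from these counts. The split was chosen after the data were seen. The 3 highest scores among all non-spanning regions were 153.1, at the region on chromosome 7 named above, 118.3 at chr6:30173336-30174878 on the single-exon ENSMUST00000194541, and 111.4 at chr13:65528548-65529322 over exon 1 of 2 of ENSMUST00000222598.

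TAF4b overlap did not separate single-exon from multi-exon regions when both TAF4b lists were joined, at 9.70% and 12.8% (difference -3.12 points, -8.67 to 3.80). The 2 lists differed in the sign of the difference. In replicate 1 the shares were 8.21% and 6.84% (1.37 points, -3.38 to 7.66), and in replicate 2 they were 3.73% and 10.3% (-6.53 points, -10.7 to -1.07). None of the 134 single-exon regions was among the 9 found in H3K4me3 replicate 2, 0% (0 to 2.72). The share was 2.56% (1.18 to 4.81) of multi-exon regions and 2.84 percent of the list. The intervals of the 2 groups overlapped, and no difference is called.

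**Figure D4:**
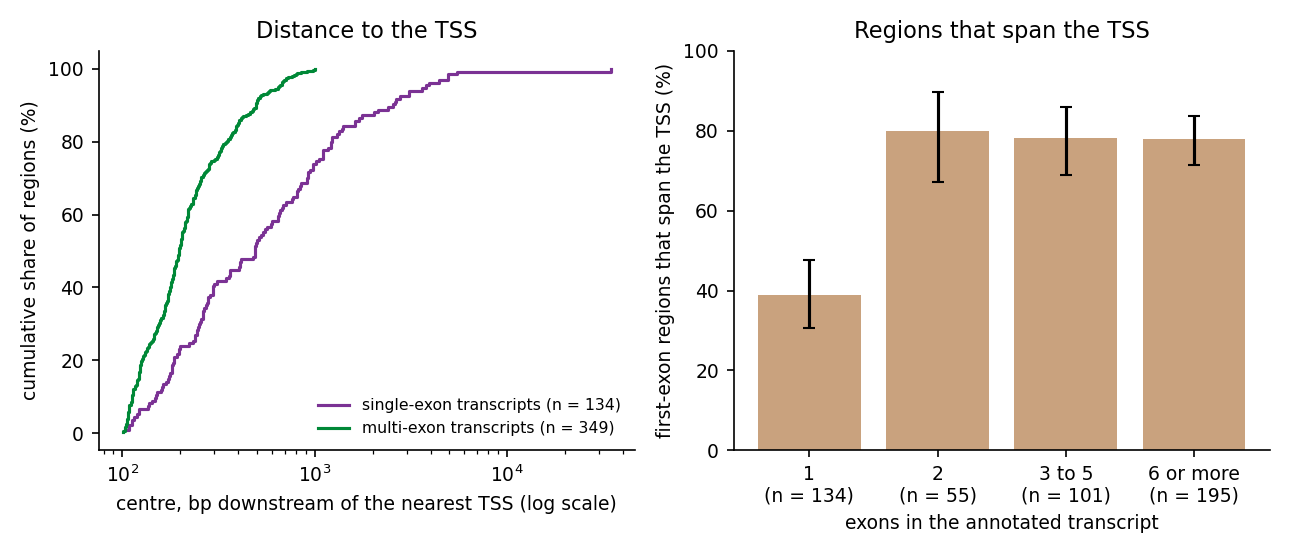
On the left the cumulative share of first-exon regions (%) is drawn against the distance of the centre downstream of the nearest TSS in bp, on a log axis, for the 134 on single-exon and 349 on multi-exon transcripts (the 2 centred upstream are left out); the medians over all regions of each kind are 490.5 and 198 bp. On the right bars give the share (%) that span the TSS by the number of exons of the transcript, with exact 95% intervals, and the single-exon bar at 38.8% is the lowest of the 4.

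First-exon regions were also split by whether the transcript named in the annotation was the nearest one. Where it was, 61.8% of first-exon regions spanned the nearest TSS. Where the list named another transcript as nearest, 79.4% did, a difference of -17.5 points (-25.3 to -8.85). Spanning is itself measured from the nearest TSS, so it is not independent of this split and the difference is given as a description. TAF4b overlap was 10.9% and 14.2% (-3.28 points, -10.3 to 2.72).

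First-exon regions did not differ past counting error from promoter-TSS regions in having another called region close by. Another H3K4me3 region lay within 1000 bp of 14 of the 485, 2.89%, against 2.33% of promoter-TSS regions (difference 0.55 points, -0.73 to 2.51). Another region with the same nearest transcript existed for 25 of them, and for 3 it was a promoter-TSS region. Of the 158 that did not contain the TSS, 2 had a promoter-TSS region with the same nearest transcript. Another region lay within 1000 bp of 6.33% of these 158, against 7.30% of non-spanning promoter-TSS regions (-0.97 points, -4.95 to 4.37). Counts by nearest transcript have no comparison class here, and they miss a region assigned to another transcript of the same gene.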

How the data were processed

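Per the submitters' processing notes the build was GRCm39 and the tools included HOMER 4.10, whose column names the lists carry, Bowtie2 2.3.0 and SAMtools 1.9; settings are not given there. The authors deposited 1 annotated list per library, and its peak score is in a unit that the file headers do not define. Lists were called per library, not pooled. Distances were checked to run from region centres: where transcripts were nearest to several features, 1223 of 1223 gave 1 TSS position within 1 bp. A region spans the TSS where its distance is at most its width divided by 2. Overlap means at least 1 bp. Shares have exact Clopper-Pearson intervals, medians order-statistic intervals and differences Newcombe's intervals, at 95%, computed with Python 3.11.15, NumPy 2.4.6, pandas 2.3.3 and SciPy 1.17.1 and tested on simulated data. Named regions are those highest in score (in the class, in both H3K4me3 lists, with both TAF4b replicates, single-exon, not spanning), the widest and the farthest. The members and lists were chosen with earlier results of these data known. Alternatives changed the overlap rule, the regions compared and the libraries used. The RefSeq tables at hand are of another build and matched 0 of the 636 transcripts, so no sequence or gene symbol is given.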

Additional observations from a re-analysis of the deposited data

How the results depend on the processing

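Over 9 results, 57 alternatives were run (41 planned and 16 added after seeing the data). Of 39 alternatives of a difference, 32 kept its direction and side of the threshold, and of 18 alternatives of a share, 8 stayed within the share's own interval. The TAF4b difference from promoter-TSS regions was below 0 in 14 of 14 alternatives, most of which share regions and peaks and so are not independent. Its interval, however, included 0 among centres up to 1000 bp downstream (-1.97 points). Leaving out 1 library at a time it ran from -19.5 to -5.65 points, and without H3K4me3 replicate 1, where 12 first-exon regions are left, its interval included 0 at -19.5 points. The same omissions gave a TAF4b share of first-exon regions from 7.22% to 16.7% (8.45% without TAF4b replicate 1), and a difference from first introns from 4.19 to 10.4 points, of which the 10.4, without H3K4me3 replicate 1, included 0. A replicate block, joining only lists of the same replicate number, gave a TAF4b share of 7.45%, a difference from promoters of -6.29 points and one from first introns of 4.34 points; it changed no call, and the labels do not say that equal numbers mark a shared origin. Among regions above the median score the TAF4b share was 19.7%, the share found in H3K4me3 replicate 2 was 3.61%, the share spanning the TSS was 76.7%, and the width difference changed sign to 3.25 points. Among spanning regions the width difference was 1.14 points and the score difference shrank to -3.19 points, with 0 in its interval. Without H3K4me3 replicate 1 the score difference turned to 29.3 points, with an interval above 0 (0.31 to 46.6). The share spanning the TSS was 58.4% with the TSS at least 50 bp inside the edge, 78.3% in multi-exon transcripts and 61.8% where the annotated transcript was the nearest. Dropping 1 TAF4b list, or asking for the TSS at least 50 bp inside the edge, cannot raise the share concerned, by construction. The cause of the other changes was not tested. Unknown depth and the 320 regions of H3K4me3 replicate 2 limit every statement on what was not called.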

Other observations

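First-exon regions were spread over chromosomes much like promoter-TSS regions, with 2 departures at the single-chromosome level. Chromosome 17 held 2.06% of first-exon and 5.09% of promoter-TSS regions, a difference of -3.02 points (-4.24 to -1.20), and chromosome X held 4.54% and 2.56%, a difference of 1.98 points (0.35 to 4.26). With intervals widened for 20 chromosomes both included 0 (-4.77 to 0.15 and -0.33 to 5.83).

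The first-exon regions farthest from a TSS were all on single-exon transcripts. The farthest, chr7:142815601-142816101, was centred 34435 bp downstream of the TSS of ENSMUST00000185789, with a score of 32.5 and the narrowest width, 500 bp. The next were chr7:58884354-58885051 at 5518 bp, with a score of 48.7, and chr13:31994813-31996282 at 4931 bp from the TSS of ENSMUST00000062292, with a score of 95.1 and a width of 1469 bp. No TAF4b peak of either replicate lay in any of the 3. Of all 36 first-exon regions centred more than 1000 bp downstream, 2 held one, 5.56% (0.68 to 18.7), against 10.7 percent of the list.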
